A study of Mus musculus with 11 samples.

Results

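The genes described here are 41 named genes of energy metabolism in mouse cells: 17 of glycolysis and its transport and control steps, and 24 of the mitochondrial respiratory chain and ATP synthase. They were listed by name for their place in these pathways, and each was read through the probe set paired with its current or older symbol, taking the brightest where a gene had several. Of the 41 genes 38 were measured, 14 of glycolysis and all 24 of the respiratory chain, among 19938 genes in all. Gpi1 and Eno1 had no probe set paired with a single symbol in the probe table used here. Gapdh was covered by 25 probe sets shared with several symbols and is given apart.

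All samples were male mouse embryonic fibroblasts (MEFs) taken at 13.5 days of gestation from an F1 cross that carried ROSA-rtTA, a transactivator that responds to doxycycline, and a Nanog-GFP reporter. They were transfected with a piggyBac transposon, a mobile DNA element inserted by a transposase, from which doxycycline switched on the transgene and, with it, mCherry as a red fluorescent marker. Of the 11 constructs 8 were polycistronic reprogramming cassettes (MKOS, OSKM, STEMCCA, WTSI, OKMS, EB-C5, OKN-HAMS and OK+9MS), 2 constructs carried Klf4 by itself (Klf4S and Klf4L), and these 10 populations were sorted for mCherry on day 6 of doxycycline. The control construct carried lacZ and was harvested unsorted on day 2, so in any contrast to lacZ the effects of transgene, day and sorting cannot be told apart.

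With 1 Affymetrix array per construct, the spread within a group is the spread between different constructs and not between repeated cultures, and the p-values measure only that spread. In these bulk samples fewer cells of a type and less RNA per cell cannot be told apart. Array medians lay between 7.19 and 7.27 on the log2 scale. The mean signal of 10 MEF markers lay between 11.08 and 12.05 in the cassettes, at 12.39 and 12.36 in Klf4S and Klf4L and at 11.26 in lacZ, and Vim lay between 13.38 and 13.76 on all 11 arrays. The 6 simple epithelium markers summed to between 44.9 and 66.3 log2 units in the cassettes, to 46.6 and 47.7 in the Klf4 arrays and to 41.9 in lacZ. The 6 macrophage markers summed to between 37.6 and 39.5 in the cassettes, to 38.2 and 38.6 in the Klf4 arrays and to 37.8 in lacZ, and of these Ptprc and Adgre1 were under 6 on every array, a level that cannot be told from background.

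Glycolysis breaks glucose down to pyruvate in the cytosol. Pyruvate is then either reduced to lactate and exported or taken into mitochondria, where electrons drawn from it pass along complexes I to IV and the resulting proton gradient drives ATP synthase. Fibroblasts make much of their ATP by this oxidative route, pluripotent stem cells rely more on glycolysis, and a turn towards glycolysis is a known early event of reprogramming. Several steps are served by more than 1 gene, each with its own tissue pattern, so a switch between such isoform genes was looked for as well as a change in level.

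Differences between the 3 groups were tested in a single limma fit over all genes with Benjamini-Hochberg adjustment, and a gene was called at an adjusted p under 0.05. The 3 comparisons share arrays, so their values are set side by side and are not independent of each other. Slc2a3 and Pfkp, 2 of the 14 glycolysis genes measured, rose in the cassettes against Klf4 alone, and none fell, where 6.35% of all genes were called higher, 8.12% lower and 14.5% in either direction. No respiratory chain gene of 24 was called in that comparison; 4 of the 24 were at an unadjusted p under 0.05, as were 4 of the 14 glycolysis genes and 30.61% of all genes. A share of 2 in 14 lies near the background of all genes, so the calls describe these genes and do not mark glycolysis out as a group. In the comparison of cassettes with lacZ 0 of 14 and 0 of 24 genes were called by limma, against 2.05% of all genes (0.456% higher and 1.59% lower), with 4 glycolysis genes, no respiratory chain gene and 15.48% of all genes at an unadjusted p under 0.05. Between Klf4 alone and lacZ the counts were again 0 of 14 and 0 of 24, against 0.747% of all genes (0.271% higher and 0.476% lower), with 0 and 1 genes at an unadjusted p under 0.05 against 11.48% of all genes.

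**Figure D1:**
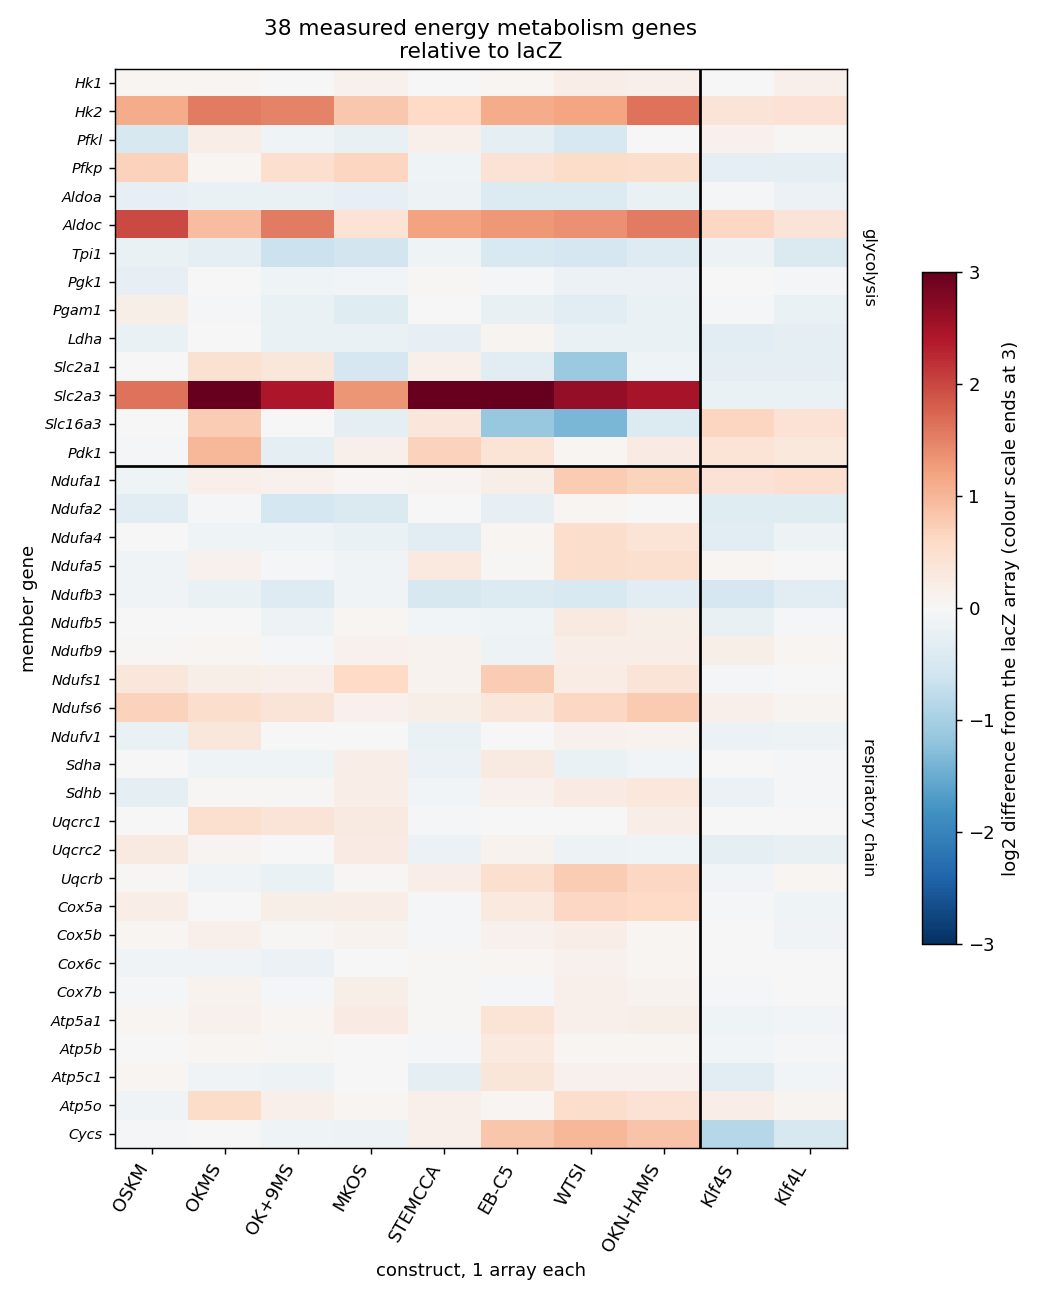
Colour map of the log2 difference from the lacZ array for each of the 38 measured genes (rows, glycolysis above the line and respiratory chain below) in the 10 other constructs (columns, 1 array each). Slc2a3 is the darkest row, Hk2 and Aldoc are above lacZ in all 10 constructs, and most respiratory chain rows are pale.

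Glucose enters the cell through the facilitative transporters GLUT1, the product of Slc2a1, and GLUT3, the high-affinity carrier encoded by Slc2a3. The Slc2a3 signal in the cassettes lay between 9.04 in MKOS and 11.83 in OKMS with a median of 10.27, against Klf4S (7.50), Klf4L (7.53) and lacZ (7.71). Every cassette was above the 3 other arrays, with no overlap. Slc2a3 was higher in the cassettes than in Klf4 alone by 2.86 ± 0.62 (SE) on the log2 scale, a 7.24-fold difference (95% confidence interval of the log2 difference 1.47 to 4.24, limma adjusted p = 0.01935). Against lacZ the difference was 2.66 ± 0.83 (SE) with a limma adjusted p of 0.1562, which did not pass, and Klf4 alone differed from lacZ by -0.20 ± 0.96 (SE). The call against Klf4 alone was lost without Klf4S (limma adjusted p = 0.1779) or without Klf4L (0.1539), when 1 Klf4 array remains, and was kept in the 16 other alternatives run. Over all 18 the limma adjusted p ranged from 0.008703 to 0.1779.

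The Slc2a1 signal ran from 11.14 in WTSI over a median of 12.21 to 12.73 in OKMS, against Klf4S (11.99), Klf4L (11.97) and lacZ (12.26). Cassettes lay on both sides of every other array, and the difference from Klf4 alone was 0.14 ± 0.35 (SE), with a 95% interval of -0.64 to 0.93. Slc16a3 encodes MCT4, which carries lactate out of the cell. Its signal lay between 8.93 in WTSI and 11.08 in OKMS with a median of 10.18, against 10.95, 10.74 and 10.31 in Klf4S, Klf4L and lacZ. In 7 of 8 cassettes Slc16a3 was below both Klf4 arrays, but the difference of -0.79 ± 0.49 (SE) did not pass (limma adjusted p = 0.3196).

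Hexokinase traps glucose in the cell as glucose 6-phosphate, and Hk2 encodes an inducible form. Hk2 lay between 8.89 in STEMCCA and 9.91 in OKN-HAMS in the cassettes with a median of 9.45, against Klf4S (8.67), Klf4L (8.73) and lacZ (8.29). All 8 cassettes were above both Klf4 arrays, which in turn were above lacZ. The Hk2 difference from Klf4 alone was 0.78 ± 0.25 (SE; limma adjusted p = 0.06106) and from lacZ 1.19 ± 0.33 (SE; limma adjusted p = 0.1143), and neither passed. Over the 18 alternatives the limma adjusted p of the first ranged from 0.01908 to 0.3074: it passed without STEMCCA (0.01908), without MKOS (0.04427) or with genes of mean signal under 6 left out (0.0485). Against lacZ it ranged from 0.03826, without STEMCCA, to 0.1798. Hk1, the form found in most tissues, differed by 0.00 ± 0.06 (SE) from Klf4 alone and spanned 12.97 to 13.16 over the cassettes. That Hk1 probe set is doubtful, since its only listed accession is also listed for probe sets of the ribosomal protein gene Rpl17. The other Hk1 probe set, which lists RefSeq mRNAs of Hk1, differed by -0.201 between cassettes and Klf4 alone.

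Phosphofructokinase commits sugar to glycolysis, and Pfkp and Pfkl encode its platelet-type and liver-type subunits. Pfkp lay between 9.50 in STEMCCA and 10.33 in OSKM with a median of 10.14, against Klf4S (9.32), Klf4L (9.33) and lacZ (9.63). Every cassette was above both Klf4 arrays, and all but STEMCCA were above lacZ. Pfkp rose by 0.71 ± 0.20 (SE) against Klf4 alone, 1.64-fold (95% interval 0.26 to 1.16, limma adjusted p = 0.04326), while the difference from lacZ was 0.41 ± 0.27 (SE; limma adjusted p = 0.5403). The Pfkp call was close to the threshold: the limma adjusted p was 0.0616 without OSKM, 0.06856 without OK+9MS, 0.0637 without EB-C5, 0.0669 without WTSI, 0.06668 without OKN-HAMS, 0.2571 without Klf4S and 0.2223 without Klf4L, and the range over 18 alternatives was 0.009402 to 0.2571. Pfkl lay between 9.80 and 10.47 in the cassettes and at 10.40, 10.31 and 10.28 in Klf4S, Klf4L and lacZ, a difference of -0.23 ± 0.18 (SE) from Klf4 alone that did not pass.

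Aldolase splits the phosphorylated hexose, and Aldoc is its brain-type gene beside the widely expressed Aldoa. Aldoc lay between 8.37 in MKOS and 9.93 in OSKM with a median of 9.29, against Klf4S (8.57), Klf4L (8.34) and lacZ (7.96). The cassettes were all above lacZ, and 7 of 8 were above both Klf4 arrays, MKOS lying between them. The Aldoc difference was 0.79 ± 0.32 (SE) from Klf4 alone (limma adjusted p = 0.1257) and 1.29 ± 0.43 (SE) from lacZ (limma adjusted p = 0.1833). The first passed only without MKOS, at 0.92 and a limma adjusted p of 0.02691, in a range of 0.02691 to 0.4469 over 18 alternatives. Aldoa lay between 12.70 and 12.97 in the cassettes, all 8 below the 13.11 of lacZ, and at 13.06 and 12.95 in Klf4S and Klf4L. Its differences of -0.26 ± 0.11 (SE) from lacZ and -0.15 ± 0.08 (SE) from Klf4 alone did not pass (limma adjusted p = 0.2841 and 0.2544).

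The promoters of Hk2 and Aldoc are shown because these were, after Slc2a3, the glycolysis genes with the largest differences in the direction of higher signal in cassettes than in Klf4 alone. Each sequence holds the 250 bases before the gene's start, 5′ to 3′ on the gene's strand, from RefSeq (GRCm38.p6). The Slc2a3 promoter is not shown, and the Pfkp window lies within the annotated gene and was not printed. Capitals mark matches on either strand to the core of the hypoxia-response element, ACGTG or GCGTG, which hypoxia-inducible factors bind, and would also mark the E-box CACGTG bound by Myc, which contains ACGTG.
Hk2, chr6:82774455-82774704, minus strand: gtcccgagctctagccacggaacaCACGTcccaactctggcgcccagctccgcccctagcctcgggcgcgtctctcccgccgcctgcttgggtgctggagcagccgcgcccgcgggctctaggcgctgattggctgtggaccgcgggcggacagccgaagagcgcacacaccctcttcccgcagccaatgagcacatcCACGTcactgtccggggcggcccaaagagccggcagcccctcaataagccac
Aldoc, chr11:78322823-78323072, plus strand: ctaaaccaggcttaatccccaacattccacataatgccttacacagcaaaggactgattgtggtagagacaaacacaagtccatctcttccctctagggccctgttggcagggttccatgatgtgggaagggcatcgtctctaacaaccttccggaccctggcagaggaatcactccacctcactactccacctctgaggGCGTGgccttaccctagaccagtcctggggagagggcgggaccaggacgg
The Hk2 stretch held 2 hypoxia-core matches and the Aldoc stretch 1, and neither held an E-box. Among windows of 300 bases, 15 of 19 from glycolysis genes and 15 of 19 from respiratory chain genes (78.9% each) held a hypoxia-core match, against 43.8% of the 32851 windows of all genes. By gene, 12 of 13 glycolysis genes and 14 of 17 respiratory chain genes with a window held it in at least 1. Some genes had several windows and so more chances of a match. No share by gene was computed over all genes, so these counts are not comparable with the 43.8% of windows. The core of the motif of NRF1, a regulator of many respiratory chain genes, TGCGCA, was in 5 of 19 glycolysis windows (26.3%) and 6 of 19 respiratory chain windows (31.6%), against 7.76% of all windows, and the ETS motif CCGGAAG in 1 of 19 in each, against 8.86%. None of these shares was tested. An E-box was present in 1 of 19 windows in each subset (Ldha and Ndufv1), against 7.15% of all windows. A match is a description of the letters and does not show binding.

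The middle and last steps of glycolysis showed small differences. Tpi1, triosephosphate isomerase, lay between 12.00 and 12.53 in the cassettes, at 12.50 and 12.22 in Klf4S and Klf4L and at 12.65 in lacZ, so that all 8 cassettes and both Klf4 arrays were below lacZ. The difference of -0.40 ± 0.19 (SE) between cassettes and lacZ did not pass (limma adjusted p = 0.3452). Pgk1, phosphoglycerate kinase, and Pgam1, phosphoglycerate mutase, differed by -0.07 ± 0.08 (SE) and -0.02 ± 0.13 (SE) between cassettes and Klf4 alone. Ldha, which encodes the main subunit of lactate dehydrogenase in muscle and many proliferating cells, lay between 13.14 and 13.46 in the cassettes, at 13.07 and 13.12 in Klf4S and Klf4L and at 13.38 in lacZ. All 8 cassettes were above both Klf4 arrays, by 0.14 ± 0.09 (SE) on average (limma adjusted p = 0.3338), and 2 of 8 were above lacZ. Pdk1 encodes a kinase that inactivates pyruvate dehydrogenase and so limits the oxidation of pyruvate in the mitochondria. It lay between 8.48 in OK+9MS and 9.75 in OKMS with a median of 8.95, against 9.16, 9.07 and 8.75 in Klf4S, Klf4L and lacZ, and cassettes lay on both sides of each. Gapdh, read through shared probe sets as an alternative, lay between 13.75 and 13.82 on all 11 arrays, the narrowest span given here for a glycolysis gene.

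**Figure D2:**
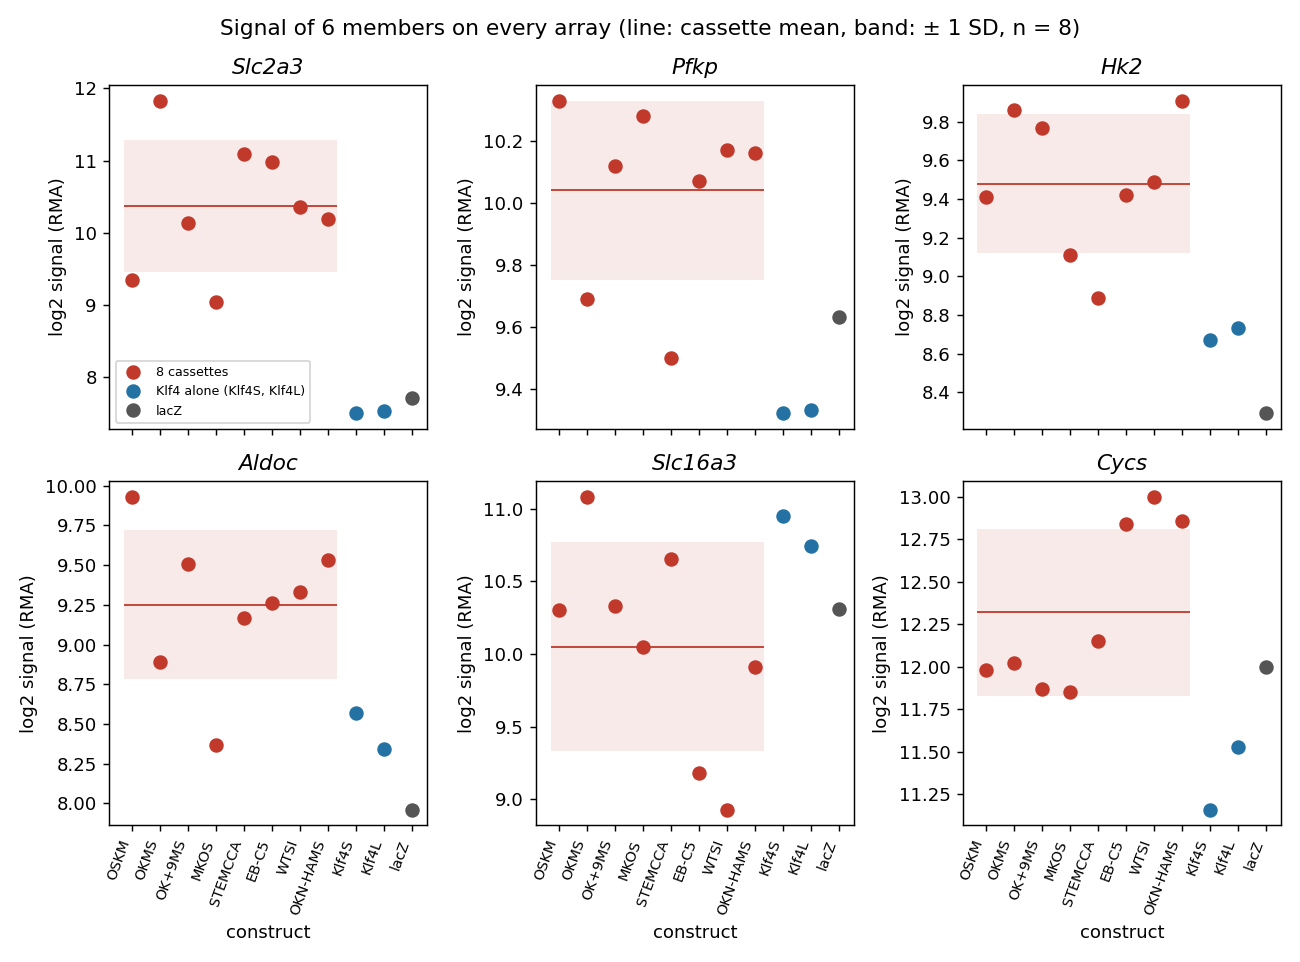
Log2 RMA signal of Slc2a3, Pfkp, Hk2, Aldoc, Slc16a3 and Cycs on each of the 11 arrays, with the mean of the 8 cassettes as a line and ± 1 SD as a band. The cassettes lie above both Klf4 arrays for Slc2a3, Pfkp, Hk2 and Cycs, overlap them for Aldoc and Slc16a3, and spread over 2.78 for Slc2a3.

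The respiratory chain genes differed by smaller amounts, with a median of 0.17 between cassettes and Klf4 alone over 24 genes (all genes -0.02) and of -0.01 over the 14 glycolysis genes. The sign was positive for 20 of 24 respiratory chain genes, against 44.75% of all genes, and for 7 of 14 glycolysis genes, but no respiratory chain gene passed the test and these counts carry none of their own. Against lacZ the medians were 0.07 for the respiratory chain and -0.12 for glycolysis (all genes -0.01), with 20 of 24 and 6 of 14 genes positive and 45.47% of all genes. Klf4 alone against lacZ gave a median of -0.07 in both subsets (all genes 0.00), with 5 of 24 and 6 of 14 genes positive and 49.52% of all genes.

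By complex, the median difference between cassettes and Klf4 alone was 0.16 for the 10 genes of complex I, which takes electrons from NADH, and 0.09 for the 2 of complex II, succinate dehydrogenase. It was 0.25 for the 3 of complex III, which passes electrons to cytochrome c, 0.11 for the 4 of complex IV, cytochrome c oxidase, and 0.18 for the 4 of ATP synthase. All 8 cassettes were above both Klf4 arrays for 5 of 24 respiratory chain genes (Ndufs1, Uqcrc2, Atp5a1, Atp5b and Cycs) and 4 of 14 glycolysis genes (Hk2, Pfkp, Ldha and Slc2a3), against 12.3% of all genes. For no member were all 8 below both Klf4 arrays, against 17.8% of all genes. All 8 were above lacZ for 3 genes of each subset (Hk2, Aldoc and Slc2a3; Ndufs1, Ndufs6 and Atp5a1) against 13.3% of all genes, and below it for Aldoa, Tpi1 and Ndufb3, against 20.8% of all genes. Both Klf4 arrays were above lacZ for 6 of 14 and 5 of 24 genes (38.7% of all genes) and below it for 7 of 14 and 16 of 24 (40.6% of all genes).

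Cycs encodes cytochrome c, the small carrier that moves electrons from complex III to complex IV and also starts apoptosis once released from mitochondria. Its signal in the cassettes lay between 11.85 in MKOS and 13.00 in WTSI with a median of 12.09, against Klf4S (11.16), Klf4L (11.53) and lacZ (12.00). Both Klf4 arrays were below every cassette, and 5 of 8 were above lacZ. EB-C5 (12.84), WTSI (13.00) and OKN-HAMS (12.86) were the 3 highest, and the other 5 cassettes lay between 11.85 and 12.15. The Cycs difference from Klf4 alone was 0.98 ± 0.34 (SE; limma adjusted p = 0.08163), did not pass, and stayed above the threshold in all 18 alternatives (0.06272 to 0.4222). Of its 3 probe sets, the 2 bright ones differed by 0.979 and 0.919 and the dim one, with a mean signal of 6.05, by 0.41. The Cycs promoter is shown because this gene had the largest difference of the 24. Capitals mark the same motifs as above.
Cycs, chr6:50566570-50566819, minus strand: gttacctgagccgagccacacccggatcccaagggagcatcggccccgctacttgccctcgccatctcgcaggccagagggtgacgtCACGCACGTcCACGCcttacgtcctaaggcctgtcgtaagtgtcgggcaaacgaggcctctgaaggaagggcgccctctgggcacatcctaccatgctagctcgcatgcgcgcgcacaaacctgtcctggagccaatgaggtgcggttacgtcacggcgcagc
The stretch held 3 hypoxia-core matches, all within a short run in which neighbouring matches share a base or lie 1 base apart, and no E-box.

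Among the complex I genes Ndufs1, its largest subunit and part of the NADH-oxidizing arm, lay between 9.66 in STEMCCA and 10.33 in EB-C5 with a median of 9.84, against 9.50, 9.56 and 9.56 in Klf4S, Klf4L and lacZ. Every cassette was above all 3 other arrays, but the difference of 0.37 ± 0.16 (SE) from Klf4 alone did not pass (limma adjusted p = 0.1533). Ndufs6, an accessory subunit, differed by 0.34 ± 0.17 (SE; limma adjusted p = 0.204). Ndufa1, also accessory, had the lowest difference of the 24, -0.23 ± 0.22 (SE), with Klf4S and Klf4L at 8.25 and 8.33, the cassettes between 7.69 and 8.59 and lacZ at 7.82. Ndufb3 was below lacZ (8.39) in all 10 other constructs, between 7.88 and 8.29, with differences of -0.31 ± 0.15 (SE) in the cassettes and -0.43 ± 0.18 (SE) in Klf4 alone that did not pass (limma adjusted p = 0.3788 and 0.3778). The other 6 complex I genes differed by between -0.05 (Ndufb9) and 0.28 (Ndufa4) from Klf4 alone; Ndufa4 is counted with complex I by its name, although its product is now assigned to complex IV.

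The complex II genes Sdha and Sdhb, the flavoprotein and iron-sulphur subunits, differed by 0.00 ± 0.13 (SE) and 0.18 ± 0.14 (SE) between cassettes and Klf4 alone. In complex III the core subunit gene Uqcrc2 lay between 12.00 and 12.46 in the cassettes, all above Klf4S (11.91) and Klf4L (11.95), with lacZ at 12.18 within their range. Its difference of 0.28 ± 0.12 (SE) did not pass (limma adjusted p = 0.1565), nor did that of Uqcrb, 0.25 ± 0.24 (SE; limma adjusted p = 0.5687). For complex IV the largest difference was that of Cox5a, 0.34 ± 0.17 (SE; limma adjusted p = 0.2223), and the smallest in size that of Cox6c, -0.01 ± 0.08 (SE).

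ATP synthase makes ATP from the proton gradient, and Atp5a1 and Atp5b encode the alpha and beta subunits of its catalytic head. Atp5a1 lay between 11.91 in STEMCCA and 12.27 in EB-C5 with a median of 12.00, against 11.72, 11.78 and 11.87 in Klf4S, Klf4L and lacZ. Each cassette lay above the other 3 arrays, with a difference from Klf4 alone of 0.27 ± 0.09 (SE; 95% interval 0.07 to 0.47, limma adjusted p = 0.07075). Atp5a1 was the 1 respiratory chain gene to pass in any of the leave-one-out fits, when EB-C5 was left out. Atp5b lay between 13.08 and 13.41, above both Klf4 arrays (13.05 and 13.05), a difference of 0.13 ± 0.08 (SE) that did not pass. Atp5c1 and Atp5o differed by 0.23 ± 0.14 (SE) and 0.09 ± 0.17 (SE).

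**Figure D3:**
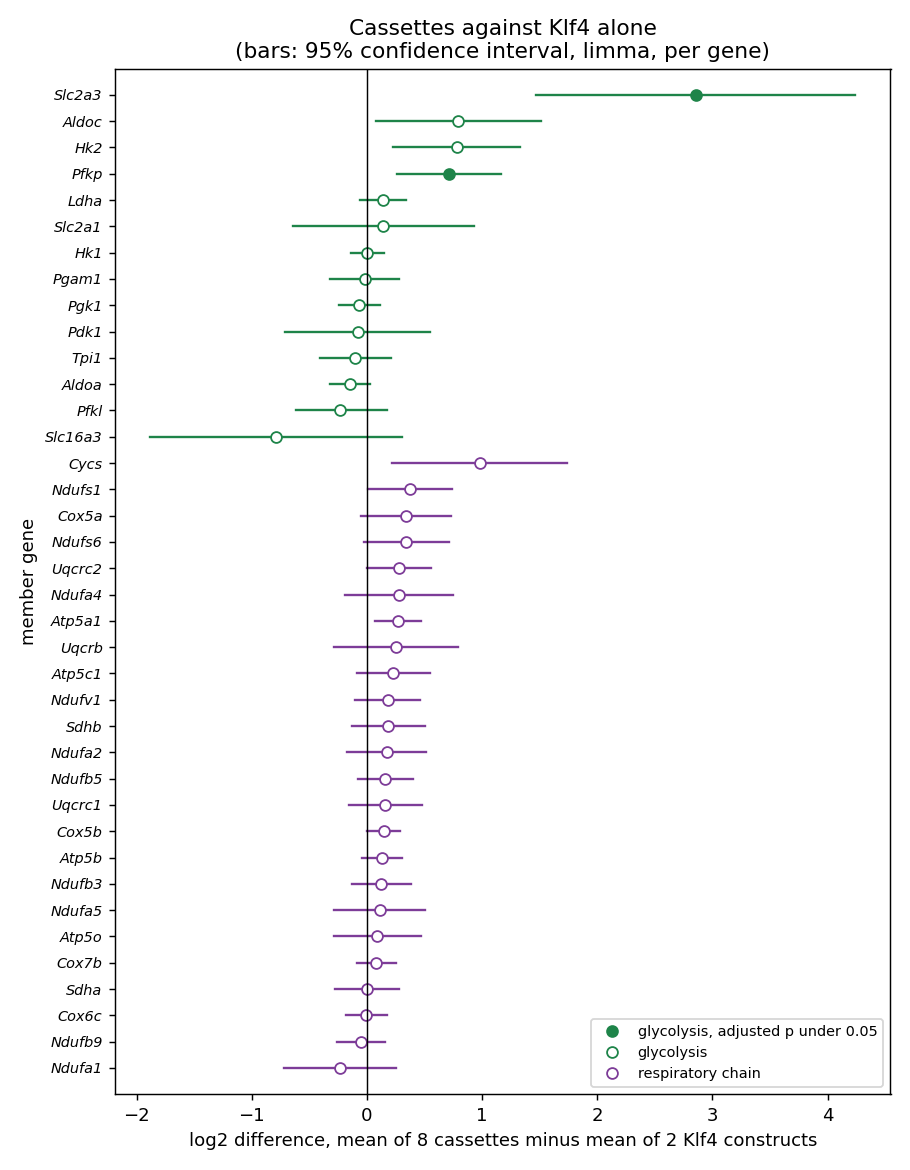
Log2 difference between the mean of 8 cassettes and the mean of 2 Klf4 constructs for each of the 38 measured genes, with 95% confidence intervals from limma that are not adjusted for the number of genes. Filled points mark Slc2a3 (2.86) and Pfkp (0.71), the genes called, and the respiratory chain genes run from -0.23 (Ndufa1) to 0.98 (Cycs).

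Among the glycolysis genes the cassettes differed from each other most in the transporters. The SD over the 8 cassettes was 0.92 for Slc2a3, above 98.7% of all genes, 0.72 for Slc16a3, above 97.5%, 0.52 for Slc2a1 and 0.47 for Aldoc. Slc2a3 was highest in OKMS, STEMCCA and EB-C5 and lowest in MKOS and OSKM. Slc16a3 was lowest in WTSI (8.93) and EB-C5 (9.18), and Slc2a1 was also lowest in WTSI. In the respiratory chain the largest SDs were those of Cycs (0.49, above 93.3% of all genes), Uqcrb (0.35), Ndufa1 (0.31) and Ndufa4 (0.30). WTSI was the highest cassette for all 4, at 13.00, 12.74, 8.59 and 10.84. OKN-HAMS was second for Cycs, Uqcrb, Ndufa1 and Ndufa4, at 12.86, 12.61, 8.49 and 10.73. The mean signal over the 24 respiratory chain genes was 11.15 in WTSI and 11.14 in OKN-HAMS, between 10.85 and 11.03 in the other 6 cassettes, 10.76 and 10.81 in Klf4S and Klf4L and 10.88 in lacZ. The mean over the 14 glycolysis genes was highest in OKMS (11.50) and lowest in MKOS (10.95), against 10.94, 10.87 and 10.88 in Klf4S, Klf4L and lacZ. Each cassette was measured once, so these differences between cassettes have no replicate check.

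A switch between isoform genes was defined as both genes of a pair called in opposite directions in 1 comparison. Of 17 pairs listed 15 had both genes measured, and 0 met this rule, while 3 had a gene called (Slc2a3/Slc2a1, Pfkp/Pfkl and Pdk2/Pdk1). The change in the ratio within each array relative to lacZ is given without a test, and the ratio itself is not read as relative abundance, since levels of different probe sets are not comparable. The log2 ratio Slc2a3/Slc2a1 was above that of lacZ by 1.62 (OSKM) to 3.76 (WTSI) in the cassettes, with a median of 2.91, and by 0.06 and 0.11 in Klf4S and Klf4L. All 8 cassettes stood apart from the Klf4 arrays. In WTSI the change came from both genes, Slc2a3 being higher and Slc2a1 lower than in lacZ, whereas in OKMS both genes were higher. Pfkp/Pfkl changed by between -0.28 (STEMCCA) and 1.18 (OSKM), with a median of 0.66, and by -0.42 and -0.32 in Klf4S and Klf4L. OSKM, MKOS and WTSI had the highest ratios, and STEMCCA and OKMS were below lacZ but above both Klf4 arrays.

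Further pairs, chosen after their values were seen, held no called gene. Hk2/Hk1 was above lacZ by 0.61 to 1.49 in the cassettes and by 0.36 and 0.29 in Klf4S and Klf4L, with the doubt about the Hk1 probe set given above. Aldoc/Aldoa was above lacZ by 0.65 (MKOS) to 2.23 (OSKM), and by 0.67 and 0.54 in Klf4S and Klf4L, so that the groups overlapped. The lactate transporter pair Slc16a1/Slc16a3, of MCT1 and MCT4, was above lacZ by 0.10 (STEMCCA) to 2.18 (WTSI), with EB-C5 at 2.11 and OKN-HAMS at 1.54, and stood at -0.16 and 0.08 in Klf4S and Klf4L. The 8 cassettes were above both Klf4 arrays, but STEMCCA by little. Neither gene of that pair passed, with Slc16a1 at 0.37 ± 0.19 (SE) between cassettes and Klf4 alone (limma adjusted p = 0.2221). Among other pairs without a call, Pdk4/Pdk1 and Ldhb/Ldha had cassette medians of -0.94 and -0.62 relative to lacZ. Not all such pairs were lower, as Ndufa4l2/Ndufa4 had a median of 0.27. Pdk4/Pdk1 lay between -1.62 (OKN-HAMS) and -0.04 (OK+9MS) relative to lacZ, with all 8 cassettes below Klf4S (0.23) and Klf4L (0.50). Ldhb/Ldha lay between -0.97 (OSKM) and 0.39 (STEMCCA), against 0.51 and 0.36 in Klf4S and Klf4L, so that the groups overlapped.

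**Figure D4:**
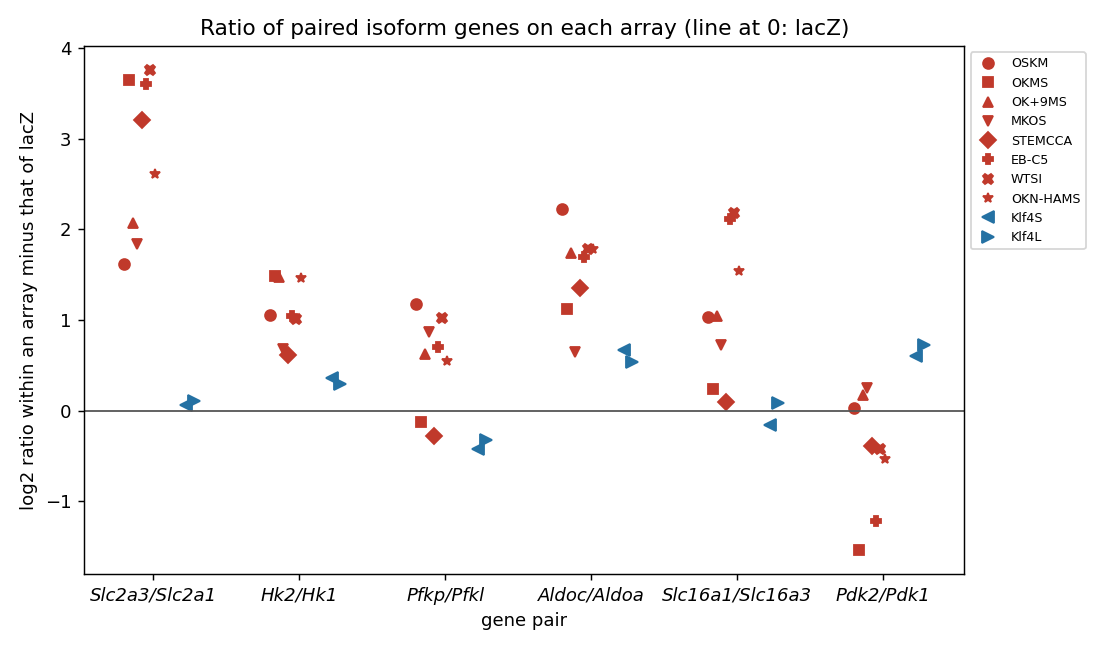
Log2 ratio of 6 gene pairs within each array after subtracting the same ratio on the lacZ array (line at 0), for 8 cassettes (red) and 2 Klf4 constructs (blue). For Slc2a3/Slc2a1 the cassettes run from 1.62 to 3.76 and the Klf4 constructs lie at 0.06 and 0.11, whereas for Aldoc/Aldoa MKOS (0.65) lies between the Klf4 constructs.

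The genes around these pathways were read from lists of other glycolysis genes (32 of 36 measured), other respiratory chain genes (58 of 61) and regulators (10 of 10). Between cassettes and Klf4 alone 2 of 32 other glycolysis genes were called higher and 2 lower, 3 of 58 other respiratory chain genes higher and none lower, and 1 of 10 regulators higher. These shares lie below the 14.5% called among all genes. Medians were -0.08, 0.11 and 0.11 for the 3 lists against -0.02 for all genes. No gene of the 100 was called against lacZ in either of the other comparisons by limma. In cassettes against lacZ 7, 2 and 1 genes of the 3 lists were at an unadjusted p under 0.05, against 15.48% of all genes. In Klf4 alone against lacZ the counts were 4, 5 and 0, against 11.48% of all genes. Between cassettes and Klf4 alone they were 15 of 32, 10 of 58 and 3 of 10, against 30.61% of all genes. Of these 15 other glycolysis genes 11 were lower and 4 higher, and of all genes 3703 were lower and 2401 higher.

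Around pyruvate, Pdk2, a second kinase that inactivates pyruvate dehydrogenase, fell by 1.21 ± 0.28 (SE) in the cassettes against Klf4 alone (limma adjusted p = 0.02392). Its signal was between 8.36 in EB-C5 and 9.59 in MKOS with a median of 8.99, against 10.19 and 10.23 in Klf4S and Klf4L and 9.18 in lacZ, so the Klf4 arrays were high and lacZ lay within the range of the cassettes. The log2 ratio Pdk2/Pdk1 was below that of both Klf4 arrays (0.60 and 0.73 above lacZ) in all 8 cassettes, from -1.54 in OKMS to 0.25 in MKOS, while Pdk1 itself did not pass (-0.08 ± 0.28, SE). Dlat and Pdhx encode the acetyltransferase of the pyruvate dehydrogenase complex and the protein that binds its E3 subunit. They were higher than in Klf4 alone by 0.27 ± 0.07 and 0.40 ± 0.12 (SE; limma adjusted p = 0.04142 and 0.0483). For Dlat the Klf4 arrays were low (10.10 and 10.02), and 3 of 8 cassettes were above lacZ (10.38). For Pdhx all 8 cassettes were above Klf4S (7.80), Klf4L (7.88) and lacZ (7.90). Eno2, the neuronal enolase gene, fell by 0.91 ± 0.21 (SE) against Klf4 alone (limma adjusted p = 0.02203). Its signal lay between 8.12 and 8.97 in the cassettes, with Klf4S, Klf4L and lacZ at 9.30, 9.43 and 8.76. Its muscle counterpart Eno3 was lower than lacZ (11.55) in all 10 other constructs, between 9.35 and 10.61, a difference of -1.53 ± 0.34 (SE) in the cassettes (limma adjusted p = 0.05808) and -1.42 ± 0.40 (SE) in Klf4 alone (0.1645). Eno3 did not pass and is named after its values were seen. The same holds for Pfkfb3 and the complex IV gene Cox6b2, which went the other way, above lacZ in all 10 other constructs. Cox6b2 was 8.56 in lacZ, 9.24 to 10.59 in the cassettes and 10.06 and 10.02 in Klf4S and Klf4L. Pfkfb3 was 8.05 in lacZ, 8.40 to 8.88 in the cassettes and 8.66 and 8.72 in Klf4S and Klf4L.

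In the respiratory chain Uqcrfs1, the Rieske iron-sulphur protein of complex III, rose by 0.67 ± 0.18 (SE; limma adjusted p = 0.03426) in the cassettes against Klf4 alone. It lay between 8.72 in STEMCCA and 9.40 in OKN-HAMS with a median of 8.87, against 8.26, 8.39 and 8.66 in Klf4S, Klf4L and lacZ, with no overlap. The complex I genes Ndufa10 and Ndufs7 were higher than in Klf4 alone by 0.27 ± 0.07 and 0.28 ± 0.08 (SE), with limma adjusted p = 0.02708 and 0.04407. For Ndufs7 the Klf4 arrays were low (12.11 and 12.14), and only 1 of 8 cassettes was above lacZ (12.53). For Ndufa10 7 of 8 cassettes were above lacZ (11.52), with Klf4S and Klf4L at 11.36 and 11.32. Ppargc1b, a coactivator of mitochondrial gene expression, rose by 0.75 ± 0.18 (SE; limma adjusted p = 0.02677), from 7.35 and 7.13 in Klf4S and Klf4L to between 7.65 in MKOS and 8.34 in EB-C5 with a median of 7.96, with lacZ at 7.29. Hif1a, the hypoxia-inducible factor that activates many glycolysis genes, was lower in all 8 cassettes (11.28 to 12.02) than in Klf4S (12.23) and Klf4L (12.27), with lacZ at 11.92. Its difference of -0.67 ± 0.20 (SE) lay at the edge of the threshold and did not pass (limma adjusted p = 0.05008). Hif1a was among the 15 surrounding genes called when STEMCCA was left out.

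All 10 calls named for members and surrounding genes were made against the 2 Klf4 arrays, and all 10 were lost when either of these was left out, as the calls among all genes dropped from 2885 to 104 without Klf4S and to 92 without Klf4L. Dlat, Pdhx and Ndufs7 were also lost without OSKM, OKMS, OK+9MS or OKN-HAMS, with arrays centred on their medians, and with the trend and robust options of eBayes. Pdhx and Ndufs7 were lost without EB-C5 or WTSI, Pdhx after quantile normalization, Uqcrfs1 without EB-C5, and Ndufa10 with the trend and robust options.

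Other features of the cells moved with the comparison between cassettes and Klf4 alone. All 7 cell division genes measured of 8 listed (such as Top2a and Plk1, chosen after the data were seen) were called higher, with a median difference of 2.31, and their mean signal was 9.64 to 11.06 in the cassettes, 8.31 and 8.32 in Klf4S and Klf4L and 10.50 in lacZ. Myc, whose signal may include the transgene, was between 9.86 in EB-C5 and 10.91 in OK+9MS in the cassettes, 9.05 and 8.65 in Klf4S and Klf4L and 9.54 in lacZ, a difference of 1.77 ± 0.24 (SE; limma adjusted p = 0.00382). The MEF marker mean was above every cassette in both Klf4 arrays, with a median difference of -1.0 over the 10 markers. In lacZ this mean was 11.26, within the cassette range of 11.08 to 12.05, so it does not by itself give the share of fibroblast-like cells. Pou5f1, whose signal may include the transgene, was 11.89 to 13.22 in the cassettes, 6.06 and 5.84 in Klf4S and Klf4L and 6.09 in lacZ. Nanog was 7.33 to 11.05 in the cassettes, against 6.69, 6.57 and 6.65. Zfp42, Esrrb, Dppa3 and Dppa5a overlapped between cassettes and Klf4 arrays. Cdh1 and Epcam were above both Klf4 arrays in all 8 cassettes, while Krt8, Krt18, Cldn4 and Esrp1 overlapped. The 8 keratinocyte markers summed to between 52.1 and 69.3 log2 units in the cassettes, to 63.8 and 64.9 in the Klf4 arrays and to 55.1 in lacZ. Of the 4 endothelium markers Tek was above both Klf4 arrays in all 8 cassettes, Kdr was below both, and Pecam1 and Cdh5 overlapped. The part of these features or the fibroblast-like share in the differences of Slc2a3, Pfkp, Pdk2, Eno2 and the respiratory chain genes was not tested.

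The labels allow 2 comparisons of a shorter with a longer form of Klf4, each between single arrays with no replicate check. OK+9MS differs from OKMS by its Klf4, per the construct names, and Klf4L is titled as Klf4 with the same extension. Between OK+9MS and OKMS 1 of 14 glycolysis genes was higher by 0.5 or more on the log2 scale and 3 were lower, against 7.47% of all genes higher and 4.89% lower. The higher gene was Aldoc (0.62), and the lower ones were Slc2a3 (-1.69), Pdk1 (-1.27) and Slc16a3 (-0.75). No respiratory chain gene of 24 passed 0.5, the differences lying between -0.48 (Ndufa2) and 0.18 (Cox5a). Between Klf4L and Klf4S none of the 38 genes passed 0.5, against 0.181% of all genes higher and 0.0903% lower, and Slc2a3, Pdk1 and Slc16a3 differed by 0.02, -0.09 and -0.21. The largest of the 38 in size was Cycs, higher by 0.37 in Klf4L. Klf4S and Klf4L were the most alike of all pairs of arrays, with an SD of the difference over all genes of 0.126, against 0.214 for the next pair, OSKM and OK+9MS.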

How the data were processed

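RNA of 11 cell populations was measured on Affymetrix mouse gene arrays, 1 per construct. The authors deposited log2 expression values computed by RMA, per the submitters' processing notes, which corrects background, normalizes arrays to each other, summarizes probe sets and can understate large differences. No RMA version is given in the sources used here.

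Of 28856 probe sets 21789 were paired with 1 gene symbol, 1621 with several and 5446 with none. Those with 1 symbol were used, and the probe set with the highest mean per gene gave 19938 genes, with no filter on dim genes. Symbols were matched through Entrez IDs to RefSeq (GRCm38.p6). For 8 members with several probe sets, near-identical copies of the gene cannot be told apart. Columns of other samples numbered 0.

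The groups (8 cassettes, 2 Klf4, 1 lacZ) were fitted over all arrays in limma 3.58.1 (R 4.3.3, lmFit and eBayes, 8 residual degrees of freedom) with Benjamini-Hochberg adjustment over all genes. The lone lacZ array and the 2 Klf4 arrays are taken to vary as the cassettes do. Klf4S and Klf4L were the most alike pair of arrays, with an SD of the difference of 0.126. The fit was also run on simulated data, with normal noise of the same spread per gene on every array. Such data cannot check whether the groups vary alike. All measured members are described by the fit. Alternatives for single genes were run for 21 genes: called members, up to 5 called genes per surrounding list and comparison, Hk1 and Hk2, both genes of the isoform pairs with a call, members past 0.5 between single arrays, and the 4 members per subset with the largest SD over the cassettes. Members and lists were chosen with earlier results of these data known. Replicate numbers follow accession order and pair no samples. Alternatives were other scalings, a filter at signal 6, other probe set rules, fewer arrays in the fit, eBayes with trend and robust options, and leaving out each cassette or Klf4 array in turn; lacZ, the only array of its group, was never left out.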

Additional observations from a re-analysis of the deposited data

Results flagged for a closer look

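One member had a cassette far from the others. Atp5b, the beta subunit of ATP synthase, was 13.41 in EB-C5, the highest of the 8 cassettes, and the nearest other cassette was at 13.20. The gap was 0.649 of the whole range, above Dixon's 95% critical value of 0.526 for 8 samples. Chance flags about 1 in 20 groups, and 48 groups were examined, so 1 flag is no more than chance gives.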

How the results depend on the processing

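No called difference changed sign under any alternative run. For the 21 genes with alternatives, 1061 of 1134 values kept their direction and their side of the threshold, 50 lost a call, 5 gained one and 18, all of uncalled differences, changed sign. In cassettes against lacZ the sign changed for Ndufa4 with arrays centred on their medians (-0.01), for Dlat and Ndufs7 after quantile normalization (0.01 and 0.00), and for Hk1 with the mean of its probe sets (-0.04) or the probe set with a RefSeq mRNA (-0.16). Against Klf4 alone Hk1 turned to -0.10 and -0.20 under the same settings and to -0.00 with shared probe sets kept, and Uqcrb in Klf4 alone against lacZ turned to 0.04 after quantile normalization. Leaving out 1 array, sign changes occurred within the ranges of Ndufa4 (-0.05 to 0.08) and Slc2a1 (-0.22 to 0.00) in cassettes against lacZ, Ppargc1b (-0.17 to 0.06) and Uqcrb (-0.09 to 0.06) in Klf4 alone against lacZ, and Hk1 (-0.06 to 0.07) in cassettes against Klf4 alone. Counts of calls depended mostly on which arrays entered. Leaving out 1 array at a time, the calls between cassettes and Klf4 alone ranged from 0 to 4 for glycolysis members, from 0 to 1 for respiratory chain members, from 0 to 15 for the 100 surrounding genes and from 92 to 3968 for all genes. For cassettes against lacZ the ranges were 0 to 1 (Hk2, without STEMCCA), 0 to 0, 0 to 1 and 184 to 734, and for Klf4 alone against lacZ 0 to 0, 0 to 0, 0 to 1 and 36 to 268. With only the arrays of the compared groups in the fit, all-gene calls were 184 for cassettes against lacZ and 0 for Klf4 alone against lacZ, where fewer arrays give the spread. Of the surrounding genes, 1 (Eno3) was called in cassettes against lacZ with arrays centred on their medians and with the trend and robust options; the cause was not tested. Between OK+9MS and OKMS, 1 respiratory chain member (Ndufa2) passed 0.5 with arrays centred or quantile normalized. The alternative that took only probe sets with a RefSeq mRNA accession was chosen after seeing the data. No paired analysis was possible because the labels carry no replicate numbers and each construct was measured once. The number of arrays, 2 for Klf4 alone and 1 for lacZ, limits the precision.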
